A study of Rattus norvegicus with 30 samples.

Results

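Gad1 and Gad2 are the genes of glutamic acid decarboxylase, the enzyme that makes the inhibitory transmitter GABA from glutamate. The rows ENSRNOG00000000007 (Gad1) and ENSRNOG00000018200 (Gad2), 2 of the 26404 genes in each count table, were followed through 3 brain areas after traumatic brain injury (TBI). They were picked by name with their levels after TBI and their joint movement already known, so the contrast of TBI with sham operation and the relation of Gad1 to Gad2 are described here without a test. Differences between brain areas in sham-operated rats, and the ratio of the genes between areas, had no part in the choice and were tested.

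In adult male Sprague-Dawley rats, lateral fluid percussion injury (FPI) sends a brief pulse of fluid onto the exposed, intact dura through an opening in the left parietal skull. The TBI group (5 rats, numbered 6 to 10) received this impact, and the sham group (5 rats, numbered 1 to 5) received the same anesthesia and surgery without it. At 3 months, perilesional cortex, thalamus and hippocampus were dissected from every animal, and poly-A RNA of each piece was sequenced, 30 libraries in all. The piece called hippocampus was cut as dentate gyrus with CA3c-b, and each library holds the RNA of all cells in the piece.

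GABA made by glutamic acid decarboxylase is released by inhibitory interneurons of the cortex and hippocampus and by projecting inhibitory neurons elsewhere. The Gad1 enzyme is spread through the cell body and processes and supplies most GABA of the brain, whereas the Gad2 enzyme is held at nerve terminals, near synaptic vesicles, and is switched on by binding its cofactor. In the rodent thalamus, inhibitory neurons are concentrated in the reticular nucleus, and most relay nuclei hold few interneurons. Loss of inhibitory neurons in cortex and dentate gyrus is a known feature of injured and epileptic tissue. In bulk RNA, fewer cells of a type and less RNA per cell cannot be told apart.

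Because the genes are described as moving together, the sequence in front of each is shown, taken from RefSeq on the rat build GRCr8, which is not the build of the counts. Both are the 250 bases before the start site, 5′ to 3′ on the plus strand. Gad1 lies at chr3:75777202-75777451 and Gad2 at chr17:89671468-89671717. Capitals mark matches to the searched motifs.
Gad1: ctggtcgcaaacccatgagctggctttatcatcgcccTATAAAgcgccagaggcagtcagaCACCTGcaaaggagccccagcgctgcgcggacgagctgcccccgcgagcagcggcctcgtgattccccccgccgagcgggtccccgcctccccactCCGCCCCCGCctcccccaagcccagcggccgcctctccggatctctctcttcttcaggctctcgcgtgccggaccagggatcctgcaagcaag
Gad2: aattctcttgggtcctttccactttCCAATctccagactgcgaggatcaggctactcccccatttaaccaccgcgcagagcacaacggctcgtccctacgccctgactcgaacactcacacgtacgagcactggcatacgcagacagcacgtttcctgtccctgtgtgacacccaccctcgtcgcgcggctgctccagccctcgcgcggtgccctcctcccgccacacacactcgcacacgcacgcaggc

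Motifs and base composition were read on both strands in windows of 300 bases (250 before and 50 after the start), in these genes and in all 33469 rat promoters of that length. The Gad1 window was 67.7% G and C with 26 CpG dinucleotides, and the Gad2 window was 63.7% G and C with 29. The median promoter held 51.7% and 7. Both windows thus held a CpG count above that of 84.8% (Gad1) and 88.5% (Gad2) of promoters. Their share of G and C was above that of 88.4% and 81.5%. A relation of either to the joint movement of the genes was not tested. Gad1 held 1 match each to the letters TATAAA (found in 14.2% of promoters), to the E-box CANNTG (72.1%), to the Sp factor motif GGGCGG (33.1%) and to the EGR factor motif GCGNGGGCG (4.98%), and the last pair overlap each other on the minus strand. The TATAAA match begins at position -213 from the start site, and whether it acts in the promoter was not tested. Gad2 held 1 match to the promoter motif with the letters CCAAT (37.5%). Neither window held TGACG (the core of the cyclic AMP response element, 21.2%) or TAATTA (a homeodomain core, 5.36%). No motif of the searched set was present in both windows, and a match or its absence concerns only these letters in this window.

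The libraries held 25336207 to 29115203 counts in the cortex, 21992859 to 31799879 in the thalamus and 23903839 to 30446501 in the hippocampus. Gad1 received 820 to 5182 counts per library and Gad2 received 103 to 773. The shallowest value, 103 Gad2 counts in the thalamus of rat 3, has an exact 95% Poisson interval of 84.1 to 125, which covers counting error only since the reads carry no molecular identifiers. Levels are given as CPM, counts scaled to a fixed library total, after TMM scaling, which sets the libraries to a common level by their bulk of genes, and a CPM value is not divided by gene length. CPM is therefore compared between libraries and not between Gad1 and Gad2. Both genes passed the filter on low counts in every area, among 17185 genes tested in the cortex, 16605 in the thalamus and 16963 in the hippocampus. No other of the 26403 identifiers had counts that stayed within 1.2-fold of either gene in proportion, so no sign of reads shared with a copy was seen.

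Some hippocampal libraries stood apart. In sham rats 4 and 5, the 10 most counted genes took 44.1% and 40.9% of all counts, against 9.95% to 16.4% in the other 8 hippocampal libraries. A check of identity used 31 genes whose level differed between rats in the same way in cortex and thalamus. For 8 of 10 hippocampal libraries the best match was their own rat (r of at least 0.784). The library labelled rat 3 (sham) matched rat 8 (r = 0.905, and -0.56 with its own number), and the library labelled rat 8 (TBI) matched rat 3 (r = 0.861, and -0.25 with its own). The labels were kept. The hippocampal fold changes, their differences from the other areas and the pooled correlation of the genes are given with and without both libraries, and the other hippocampal values include them unless stated. Identifiers in the tables carry no gene names, so the tissue of each piece was not checked against marker genes, and interneuron, glial and other GABA genes were not analysed here.

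In the perilesional cortex, both genes were about 36% lower in the rats with TBI than in the sham-operated rats. Gad1 was at 157, 157, 178, 154 and 149 CPM in sham rats 1 to 5 and at 102, 91.9, 96.7, 105 and 112 CPM in rats 6 to 10 of the TBI group. On the TMM scale, every TBI library lay below every sham library, with a gap between 112 and 149 CPM. The mean was 159 ± 10.8 CPM (SD, n = 5) in the sham rats and 101 ± 7.63 CPM (SD, n = 5) after TBI, and the log2 fold change was -0.65 (SE 0.075), which is a level 36.3% lower.

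Gad2 was at 24.6, 29.0, 26.5, 25.6 and 20.1 CPM in cortical sham rats 1 to 5 and at 21.3, 13.3, 14.1, 14.2 and 18.0 CPM in rats 6 to 10 of the TBI group. The groups overlapped only through TBI rat 6, which stood above sham rat 5. The mean was 25.2 ± 3.27 CPM (SD, n = 5) in the sham rats against 16.2 ± 3.37 CPM (SD, n = 5), and the log2 fold change was -0.63 (SE 0.13), which is a level 35.5% lower. For background, 7.91% of all cortical genes tested had every TBI library below every sham library, as Gad1 did. A log2 fold change lower than that of Gad1 was found for 1.92% of cortical genes, and one lower than that of Gad2 for 2.14%. These shares place the members among all genes and are no evidence about them, since the contrast had served to choose them. The 10 most counted genes took a different share of the reads in the cortical groups, 20.3% to 29.6% in the sham libraries and 14.1% to 23.8% after TBI. TBI rats 6, 9 and 10 were below the sham range of that share, and TBI rats 7 and 8, at 23.8% and 23.3%, were inside it. Across the 10 cortical libraries, r of the log2 level with this share was 0.42 for Gad1 and 0.26 for Gad2, and its part in the difference was not tested.

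**Figure D1:**
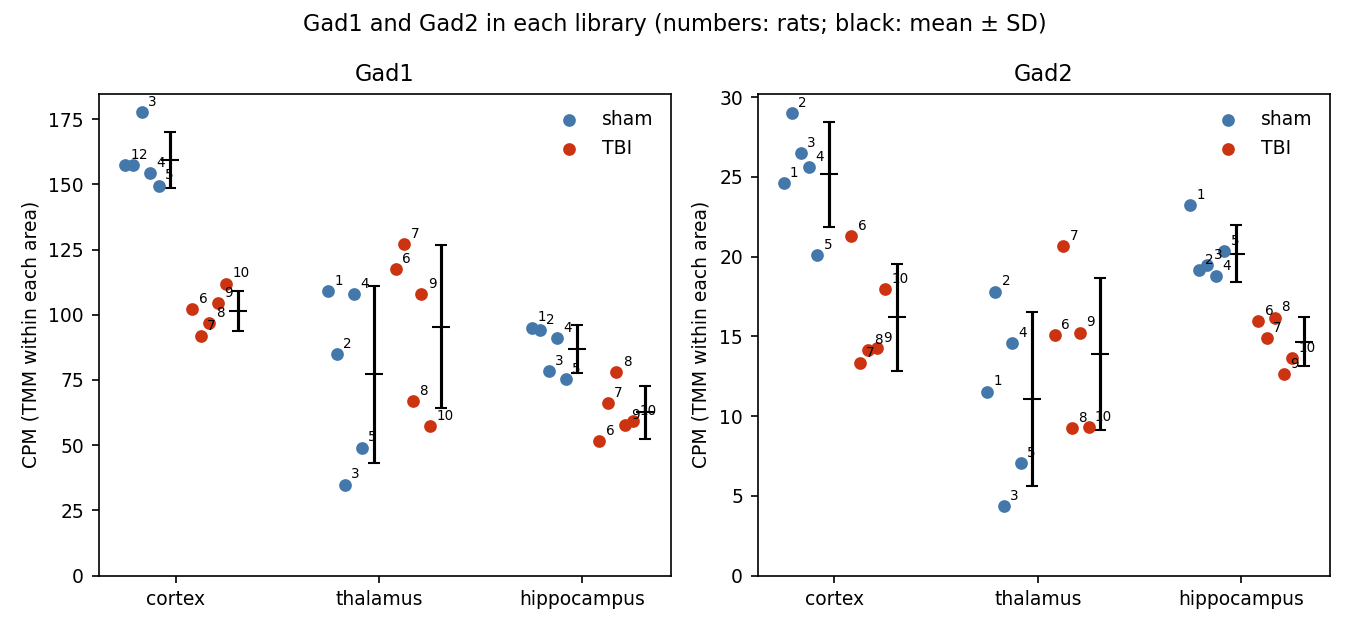
Level of Gad1 (left) and Gad2 (right) in each of the 30 libraries, in CPM after TMM scaling within an area. Points are rats, numbered, in blue for sham and red for TBI, and black bars are the mean ± SD (n = 5). Cortical Gad1 is at 149 CPM or above in the sham rats and at 112 CPM or below after TBI, while the thalamic groups overlap widely.

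The hippocampus showed a difference in the same direction, about 28% in both genes. Gad1 was at 95.1, 94.1, 78.4, 91.0 and 75.3 CPM in sham rats 1 to 5 and at 51.7, 66.2, 78.0, 57.6 and 59.2 CPM in rats 6 to 10 of the TBI group. The library labelled rat 8 was the only TBI library inside the sham range, close to the library labelled rat 3. The mean was 86.8 ± 9.24 CPM (SD, n = 5) against 62.6 ± 10.1 CPM (SD, n = 5), and the log2 fold change was -0.47 (SE 0.10).

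Gad2 was at 23.2, 19.1, 19.5, 18.8 and 20.3 CPM in the hippocampus of sham rats 1 to 5 and at 16.0, 14.9, 16.2, 12.6 and 13.6 CPM in rats 6 to 10 of the TBI group. On the TMM scale and with the labels as given, all TBI libraries lay below all sham libraries, as they did for 0.466% of the hippocampal genes tested. With the labels of rats 3 and 8 exchanged, 19.5 CPM would stand among the TBI rats and 16.2 CPM among the sham rats. The groups would then overlap, and a fold change with exchanged labels was not computed. The mean was 20.2 ± 1.80 CPM (SD, n = 5) in the sham rats and 14.7 ± 1.52 CPM (SD, n = 5) after TBI, and the log2 fold change was -0.46 (SE 0.094).

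Without the libraries labelled rats 3 and 8, the hippocampal groups stood apart for both genes. On the scale of the remaining 8 libraries, Gad1 was at 92.2, 91.3, 88.3 and 73.0 CPM in sham rats 1, 2, 4 and 5 and at 50.1, 64.2, 55.9 and 57.4 CPM in TBI rats 6, 7, 9 and 10. Gad2 was at 22.5, 18.6, 18.2 and 19.7 CPM in those sham rats and at 15.5, 14.5, 12.2 and 13.2 CPM in those TBI rats. The log2 fold changes were then -0.60 (SE 0.10) for Gad1 and -0.52 (SE 0.11) for Gad2, and 2.4% of the genes tested in these 8 libraries had their groups apart in this direction. Without sham rats 4 and 5 in place of these, the log2 fold changes were -0.51 (SE 0.12) and -0.49 (SE 0.11). Within the one flow cell that the column names give for 7 hippocampal libraries (sham rats 2, 3 and 4, with rats 6 to 9 of the TBI group), they were -0.46 (SE 0.13) and -0.35 (SE 0.11).

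How the hippocampal libraries were scaled set the size of their difference. With CPM of the total count alone, Gad1 averaged 78.1 ± 27.7 (SD, n = 5) in the sham rats and 73.3 ± 12.4 (SD, n = 5) after TBI, and Gad2 averaged 18.1 ± 6.17 and 17.2 ± 2.03 (SD, n = 5 each). On this scale the groups overlapped in both genes, with 0 TBI libraries below the lowest sham library. Gad2 ran from 10.7 to 24.5 CPM in the sham rats and from 13.8 to 18.7 CPM after TBI. The log2 fold changes were then -0.092 (SE 0.25) and -0.077 (SE 0.25), while the median of all hippocampal genes moved to 0.38 from -0.01 under TMM. Without sham rats 4 and 5, the same scaling gave -0.41 (SE 0.13) and -0.39 (SE 0.12). In the cortex, scaling to the total count moved the median gene to 0.21 from -0.01, and gave -0.43 (SE 0.13) for Gad1 and -0.39 (SE 0.18) for Gad2. The gap between the cortical groups of Gad1 was lost on that scale. The lowest sham library was at 125.2 CPM and the highest TBI library at 126.0 CPM, with 3 TBI libraries below the sham range. A scaling moves all genes of a library alike, so the distance of Gad1 and Gad2 from the median gene is nearly the same under either one by construction and says nothing about which scaling is right.

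In the thalamus the groups could not be separated, and the rats of each group differed widely. Gad1 was at 109, 85.0, 34.8, 108 and 49.0 CPM in sham rats 1 to 5 and at 117, 127, 67.0, 108 and 57.4 CPM in rats 6 to 10 of the TBI group. Low levels were found in sham rats 3 and 5 and in TBI rats 8 and 10, and the ranges overlapped. The mean was 77.2 ± 33.9 CPM (SD, n = 5) in the sham rats and 95.4 ± 31.2 CPM (SD, n = 5) after TBI, and the log2 fold change was 0.31 with an SE of 0.31.

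Gad2 was at 11.5, 17.8, 4.38, 14.6 and 7.06 CPM in the thalamus of sham rats 1 to 5 and at 15.1, 20.7, 9.25, 15.2 and 9.30 CPM in rats 6 to 10 of the TBI group. The same 4 rats were low as for Gad1. The mean was 11.1 ± 5.44 CPM (SD, n = 5) in the sham rats and 13.9 ± 4.78 CPM (SD, n = 5) after TBI, and the log2 fold change was 0.33 with an SE of 0.34. Groups that stood apart were found for 2.65% of thalamic genes in the lower direction and 2.75% in the higher direction, and for neither Gad gene. Single rats moved the thalamic values by more than 1.5 times, to 0.12 (without rat 3) and 0.47 (without rat 1) at the extremes for Gad1 and to 0.13 (without rat 3) and 0.57 (without rat 2) for Gad2.

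The spread within groups was widest in the thalamus. The SD of log2 CPM within groups was 0.63 for Gad1 and 0.67 for Gad2 in the thalamus, larger than that of 95.5% and 96.6% of thalamic genes tested (median 0.27). In the cortex it was 0.10 for Gad1 and 0.24 for Gad2 (median gene 0.19), and in the hippocampus 0.19 and 0.14 (median gene 0.19). From the lowest to the highest of the 10 thalamic libraries, Gad1 differed 3.65-fold and Gad2 4.72-fold, against 1.93-fold and 2.17-fold in the cortex. Counting error was at most 9.85% of any thalamic Gad2 value. Across thalamic libraries, the level also moved with depth (r with the total count of 0.62 for Gad1 and 0.55 for Gad2, 10 libraries), and the part of depth in the spread was not tested. In the hippocampus, r with the total count was -0.56 for Gad1 and -0.46 for Gad2 (10 libraries), and r with the share of the 10 most counted genes was 0.37 and 0.45. The part of either in the difference between sham and TBI was not tested. In the cortex, r with the total count was 0.076 and 0.15.

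The fold changes were set side by side between areas in one model of all 30 libraries, as estimates only. The log2 fold change of Gad1 was -0.67 in the cortex, -0.47 in the hippocampus and 0.29 in the thalamus, and that of Gad2 was -0.66, -0.46 and 0.31. Cortex minus thalamus came to -0.96 (SE 0.31) for Gad1 and -0.96 (SE 0.34) for Gad2. Hippocampus minus thalamus came to -0.75 (SE 0.31) and -0.76 (SE 0.34). Cortex and hippocampus differed by -0.21 (SE 0.31) and -0.20 (SE 0.33), less than the error. Without the hippocampal libraries labelled rats 3 and 8, these were -0.081 (SE 0.33) and -0.15 (SE 0.37), and hippocampus minus thalamus was -0.88 (SE 0.33) and -0.81 (SE 0.37). With rat 8 left out of every area, cortex minus hippocampus was -0.099 for Gad1 and -0.12 for Gad2. With the rat as a block, cortex minus thalamus was -1.02 for both genes.

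**Figure D2:**
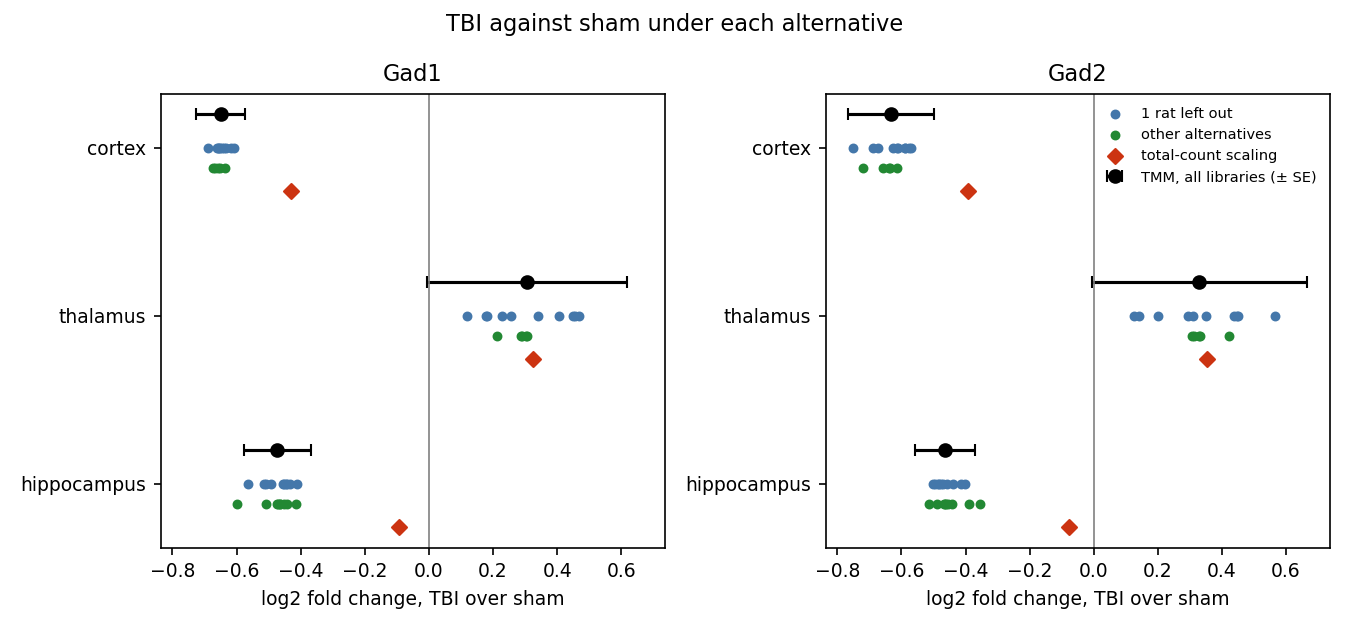
Log2 fold change of TBI over sham for Gad1 (left) and Gad2 (right) in each area. Black points with bars are the TMM values ± SE, blue points leave out 1 rat each, green points are the other alternatives and red diamonds use the total count alone. Cortical and hippocampal values lie below 0 and thalamic values above 0 under every alternative drawn, with the hippocampal total-count values near 0.

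Gad1 and Gad2 rose and fell together from library to library, which was known when they were chosen. The correlation of their log2 CPM over the 10 libraries of an area was r = 0.88 in the cortex, 0.92 in the thalamus and 0.79 in the hippocampus (Spearman's rho 0.90, 0.81 and 0.77). Without the hippocampal libraries labelled rats 3 and 8, r was 0.81. The libraries of an area share their scaling and, for each rat, the dissected piece. After the mean of each group was removed, r was 0.54 in the cortex, 0.91 in the thalamus and 0.29 in the hippocampus, so in cortex and hippocampus much of the pooled value came from the distance between sham and TBI. Without the pair of libraries farthest from the median of Gad1, r was 0.83, 0.76 and 0.83 over 8 libraries. In the thalamus, the pair left out was sham rats 3 and 5, the lowest of both genes.

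**Figure D3:**
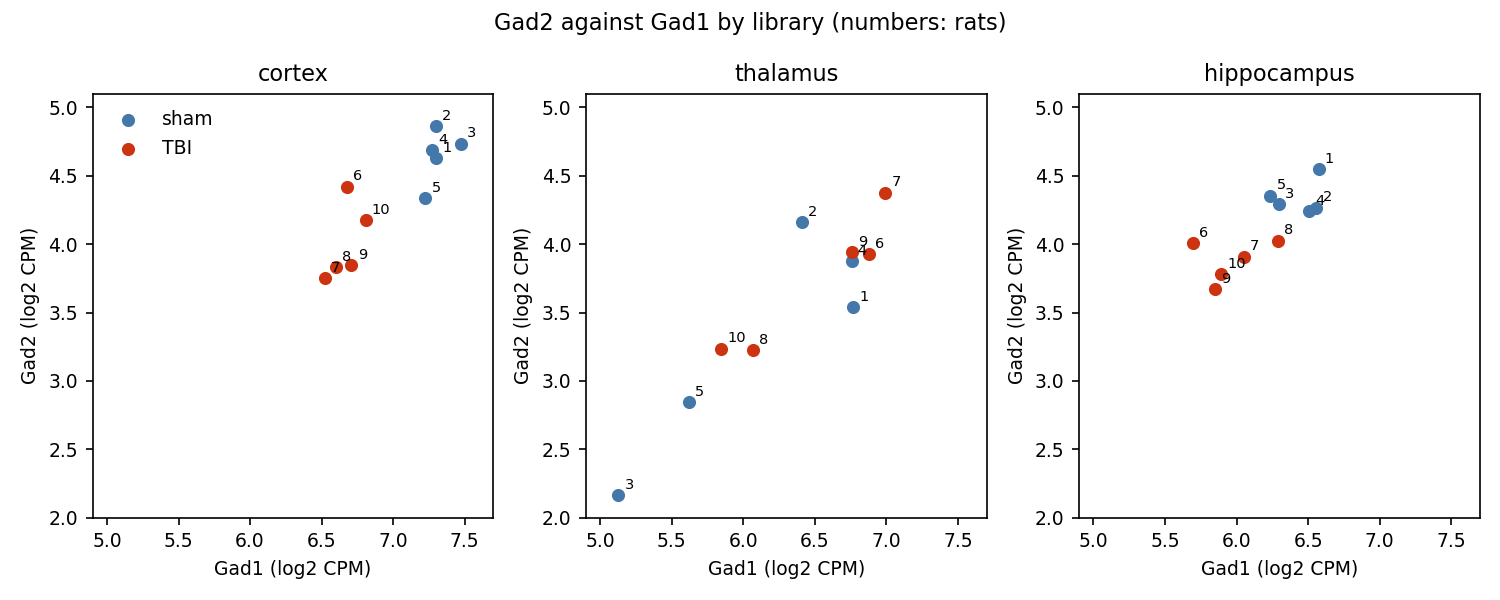
Log2 CPM of Gad2 against log2 CPM of Gad1 in cortex, thalamus and hippocampus, 1 numbered point per library, blue for sham and red for TBI. In the cortex sham and TBI libraries form separate clouds, while in the thalamus both groups lie along 1 line with sham rats 3 and 5 at its lower end (r = 0.92 over 10 libraries).

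Among 16003 genes tested in all 3 areas, Gad2 was the gene whose level most resembled that of Gad1 over the 30 libraries after each area mean was removed (r = 0.893), and Gad1 was the gene most like Gad2. With the treatment mean removed as well, each was still first for the other (r = 0.84). The areas were not brought to a common spread, so the thalamus weighs most in this r. The SD within groups was 0.63 for Gad1 and 0.67 for Gad2 there, against 0.10 to 0.24 in the other areas. The pair had also been chosen with its joint movement known. With the area mean alone removed, the next most alike to Gad1 were ENSRNOG00000015393 (r = 0.863 with Gad1) and ENSRNOG00000004899 (r = 0.816 with Gad1 and 0.795 with Gad2). Within 1 area, Gad2 took place 4 among the genes most like Gad1 in the thalamus (of 16604), place 123 in the hippocampus (of 16962) and place 443 in the cortex (of 17184). Gad1 took places 3, 44 and 184 among the genes most like Gad2 in the same order of areas. The median gene had an r of 0.01 with Gad1 over the 30 libraries. Between areas of the same rats, with group means removed, the r of a gene with itself ran from -0.53 (Gad1, cortex with thalamus) to 0.24 (Gad1, hippocampus with thalamus), and for Gad2 it was 0.10 at most (10 rats each).

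The levels of the sham-operated rats were compared between areas, on a TMM scale common to the 15 sham libraries. Gad1 was highest in the cortex, and Gad2 was higher in cortex and hippocampus than in the thalamus. Gad1 averaged 149 ± 9.85 CPM in the cortex, 89.5 ± 9.52 CPM in the hippocampus and 62.7 ± 27.1 CPM in the thalamus (SD, n = 5 each). Gad2 averaged 23.6 ± 3.06 CPM, 20.8 ± 1.85 CPM and 9.03 ± 4.51 CPM in the same order. According to the study's methods, the thalamus was read on another instrument with longer reads, whereas the sample labels give a single instrument, so the thalamus and its sequencing cannot be told apart.

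Gad1 was 2.38-fold higher in the cortex than in the thalamus, a log2 difference of 1.25 (SE 0.23, adjusted p = 0.000126, edgeR's quasi-likelihood test), in 5 of 5 rats and with no overlap. Of all 17315 genes tested, 35.1% were called higher in the cortex than in the thalamus. It was 1.67-fold higher in the cortex than in the hippocampus, a log2 difference of 0.74 (SE 0.23, adjusted p = 0.0149, edgeR), again in 5 of 5 rats with no overlap, where 20.5% of genes were called in that direction. The share of all genes without overlap between areas, or higher in 5 of 5 rats, was not computed. The cortex-hippocampus call was lost without rat 2 (adjusted p = 0.0567, edgeR) and without hippocampal rats 3, 4 and 5 (log2 difference 0.62, adjusted p = 0.182, edgeR). Hippocampal and thalamic Gad1 differed by 0.51 on the log2 scale (95% interval 0.03 to 0.99), which did not pass the test (adjusted p = 0.0565, edgeR), though the hippocampus was higher in 5 of 5 rats. With the rat as a block it passed (log2 difference 0.58, adjusted p = 0.0249, edgeR), as it did without rat 1 (adjusted p = 0.0344) or without rat 4 (adjusted p = 0.0408, edgeR). Scaled to the total count alone, it was 0.023 (SE 0.22).

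Gad2 was 2.60-fold higher in the cortex than in the thalamus (log2 difference 1.38, SE 0.26, adjusted p = 0.000129, edgeR) and 2.30-fold higher in the hippocampus than in the thalamus (log2 difference 1.20, SE 0.26, adjusted p = 0.000512, edgeR). Both held in 5 of 5 rats with no overlap, for which the share of all genes was again not computed. Of all genes tested, 35.2% were called higher in the hippocampus than in the thalamus. Scaled to the total count alone, the hippocampus-thalamus difference of Gad2 was 0.72 (SE 0.24). Cortex and hippocampus did not differ past the threshold in Gad2 (log2 difference 0.18, 95% interval -0.35 to 0.70, adjusted p = 0.595, edgeR), with the cortex higher in 3 of 5 rats. That difference was 0.37 (SE 0.23) scaled to the total count alone. With 1 rat left out it lay between 0.11 and 0.25, and none of these values passed. In the order of Gad2 levels, cortex and hippocampus were thus neighbours not separated beyond their spread, whereas for Gad1 the step from hippocampus to thalamus passed with the rat as a block and missed the threshold without it.

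**Figure D4:**
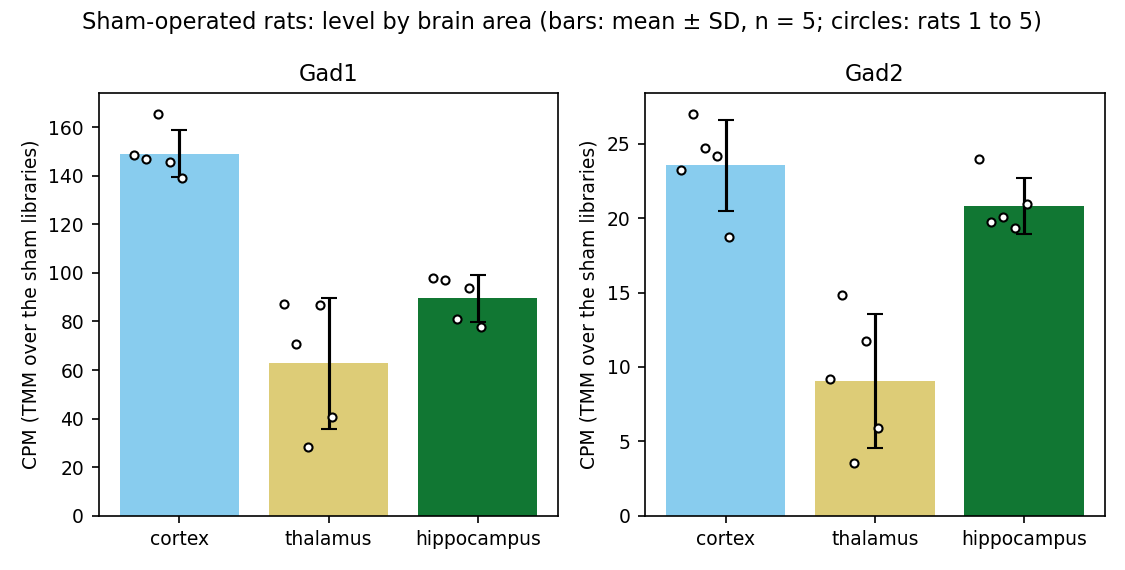
Level of Gad1 (left) and Gad2 (right) by brain area in the sham-operated rats, in CPM on a TMM scale common to the 15 sham libraries. Bars are means from 0, error bars the SD (n = 5) and circles the rats in the order 1 to 5. Gad1 stands highest in the cortex at 149 CPM, and Gad2 is lowest in the thalamus at 9.03 CPM.

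After TBI the mean levels of the areas lay closer together. On the scale of the 15 TBI libraries, Gad1 averaged 110 ± 7.88 CPM in the cortex, 76.5 ± 12.2 CPM in the hippocampus and 91.2 ± 30.5 CPM in the thalamus (SD, n = 5 each). Gad2 averaged 17.6 ± 3.59, 17.9 ± 1.85 and 13.3 ± 4.61 CPM. The cortex-thalamus difference of Gad1 was 0.28 on the log2 scale (SE 0.18) and that of Gad2 was 0.41 (SE 0.19). The difference between the groups is that of the fold changes above and was not tested.

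The ratio of Gad1 to Gad2 counts within a library needs no scaling between libraries. Its size also reflects gene length, so only its change between libraries was read. In the cortex, the ratio was 6.40, 5.43, 6.70, 6.03 and 7.44 in sham rats 1 to 5 and 4.80, 6.89, 6.84, 7.33 and 6.23 in rats 6 to 10 of the TBI group. In the thalamus, it was 9.45, 4.77, 7.96, 7.41 and 6.94 in the sham rats and 7.79, 6.15, 7.25, 7.09 and 6.17 in the TBI rats. In the hippocampus, it was 4.09, 4.91, 4.03, 4.84 and 3.70 in the sham rats and 3.24, 4.44, 4.82, 4.57 and 4.34 in the TBI rats. Sham and TBI libraries overlapped in every area, and hippocampal ratios were low in both groups.

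The ratio of the TBI rats differed from that of the sham rats by less than its error in each area. The geometric mean was 6.37 in the sham rats and 6.35 after TBI in the cortex, 7.13 and 6.86 in the thalamus, and 4.29 and 4.24 in the hippocampus. The log2 difference of TBI from sham was -0.003 (SE 0.13), -0.06 (SE 0.18) and -0.02 (SE 0.13).

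Between areas of the sham rats, the ratio differed. It was 1.48-fold higher in the cortex than in the hippocampus (log2 difference 0.57, SE 0.11) in 5 of 5 rats and with no overlap (two-sided exact permutation test, p = 0.00794, adjusted over 3 pairs p = 0.0238). The hippocampus was also below the thalamus (log2 difference -0.73, SE 0.18) in 4 of 5 rats (exact permutation p = 0.0238, adjusted p = 0.0357). Cortex and thalamus did not differ past the threshold (log2 difference -0.16, SE 0.18, exact permutation p = 0.381). With 1 rat left out, that difference ran from -0.065 (without rat 1) to -0.25 (without rat 2) and never passed. An exact sign-flip test within rats gave an adjusted p of 0.1875 for both hippocampal differences, where 5 pairs cannot go below an unadjusted 0.0625. Leaving out rat 1, 3, 4 or 5 raised the exact permutation test's adjusted p of the cortex-hippocampus difference to 0.0857 and that of the hippocampus-thalamus difference to between 0.0857 and 0.129. In the TBI rats, the same comparisons gave log2 differences of 0.58 (SE 0.15, exact permutation adjusted p = 0.0238) and -0.69 (SE 0.12, exact permutation adjusted p = 0.0238), in 5 of 5 rats each.

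**Figure D5:**
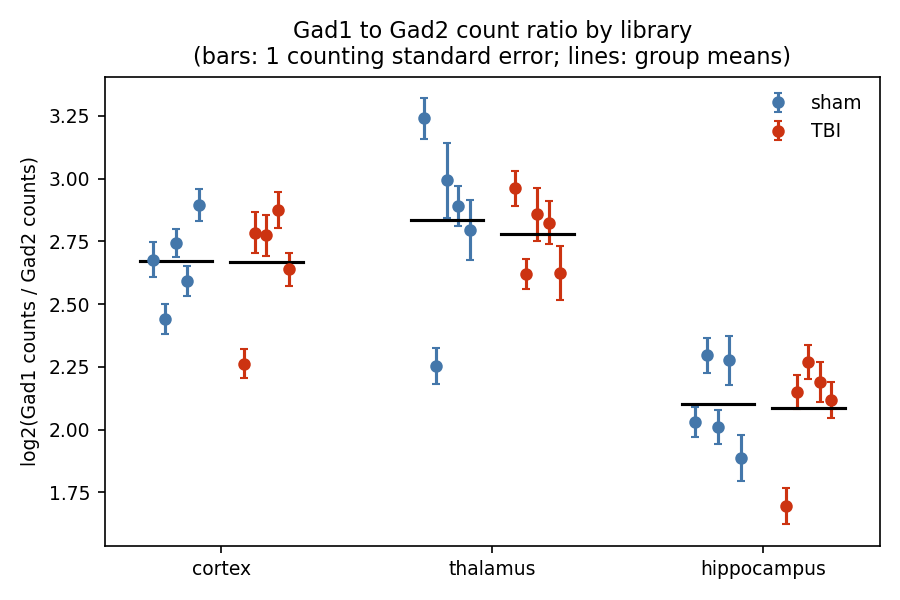
Log2 ratio of Gad1 to Gad2 counts in each library by area, blue for sham and red for TBI in the order of rat number. Bars are 1 counting standard error and black lines the group means (n = 5). The sham and TBI lines nearly coincide in each area (geometric mean ratio 6.37 and 6.35 in the cortex), and the hippocampus lies below the other areas.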

How the data were processed

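The study's methods state that reads were aligned with STAR to the rat RN5 genome (Rnor_5.0 in the submitters' processing notes). The authors deposited, for each brain area, 1 table of raw read counts by Ensembl gene. The counting tool and use of strand are not given in the sources used here, so antisense reads cannot be told apart. The study left 2 hippocampal controls out for low alignment without naming them, and all 10 hippocampal libraries were used here. Every column was matched to a sample by name (0 unused).

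Members and lists were chosen with earlier results of these data known. Of 26404 identifiers, 0 matched the names table, so the gene lists were not analysed here, and the names Gad1 and Gad2 came with their identifiers. Genes were kept by filterByExpr (minimum count 10, minimum total 15) and scaled by TMM, and edgeR 4.0.16 (R 4.3.3) fitted the robust quasi-likelihood model to the whole table, with calls at 0.05 after Benjamini-Hochberg adjustment. The prior count of log2 CPM was 3. Named genes were Gad1, Gad2 and those most correlated with them, of which 2 identifiers are given. Alternatives were DESeq2 1.42.0, limma 3.58.1 (voom), RLE scaling, no filter, 1 joint fit, each rat left out and doubtful libraries left out. Total-count scaling, the single flow cell and the correlation and ratio without doubtful hippocampal libraries were chosen after seeing the data.

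The same rats gave all areas, so the rat pairs libraries between areas, and the mean correlation of same-rat deviations was 0.058 between cortex and thalamus, 0.122 between cortex and hippocampus and 0.038 between hippocampus and thalamus. By the labels, replicates were separate rats. No pair of libraries in a group looked like 1 library deposited more than once (chi-square per degree of freedom of at least 14.2), a check that says nothing else about the replicates. The fits were tested on simulated counts with known changes.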

Additional observations from a re-analysis of the deposited data

Results flagged for a closer look

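One value stood outside its group by Dixon's criterion among 18 groups of 5 libraries checked (both genes and their ratio, in each area and treatment). Gad1 in the cortex of sham rat 3 was at 178 CPM, with the nearest sham library at 157 CPM, and the gap took 0.717 of the group's range where 0.71 is the critical value. Chance alone flags about 1 in 20 such groups. Without this rat the cortical log2 fold change of Gad1 was -0.61, against -0.65 with it.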

How the results depend on the processing

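Of 96 alternative values of the 9 tested differences, 74 kept direction and call, and of 228 values of the 15 results without a test, 225 moved by less than the spread between rats (for correlations, their standard error). That limit is wide. In the thalamus it was 0.63 for Gad1 and 0.67 for Gad2, larger than the log2 fold changes of 0.31 and 0.33. The count of 225 therefore cannot show that the thalamic values are stable. Every fold change of TBI over sham kept its sign. Scaling to the total count alone gave -0.43 for Gad1 in the cortex and -0.092 for Gad1 and -0.077 for Gad2 in the hippocampus. Without sham rats 4 and 5, the same scaling gave -0.41 and -0.39. In TBI rats in place of sham rats, the Gad1 differences were 0.28 (cortex minus thalamus, call lost, adjusted p = 0.183, edgeR), 0.53 (cortex minus hippocampus, call kept, adjusted p = 0.0205) and -0.25 (hippocampus minus thalamus, reversed). Those of Gad2 were 0.41 (cortex minus thalamus, call lost, adjusted p = 0.0697, edgeR), -0.022 (cortex minus hippocampus, reversed) and 0.43 (hippocampus minus thalamus, call lost, adjusted p = 0.0576, edgeR). Without hippocampal rats 3, 4 and 5, cortex minus hippocampus was 0.62 for Gad1 and 0.51 for the log2 ratio, and hippocampus minus thalamus was -0.67 for the ratio, none past the threshold with 2 hippocampal libraries left. For the ratio, so few libraries allow an unadjusted exact permutation p of 0.0952 at the least. Its calls could therefore not be kept in that setting, whatever the values. With the rat as a replicate block, hippocampus minus thalamus of Gad1 was 0.58 and passed, and the ratio differences of 0.57 and -0.73 did not. The block changed no other call, though its number for hippocampal rat 3 is in doubt. With 1 rat left out, Gad1 stayed between 0.66 and 0.79 for cortex minus hippocampus (lost without rat 2) and between 0.38 and 0.65 for hippocampus minus thalamus (passed without rat 1 or 4). The ratio stayed between 0.46 and 0.68 and between -0.93 and -0.62, and passed only without rat 2, where 4 against 4 libraries allow an unadjusted p of 0.0286 at the least. Within an area, sham and TBI rats share no number, so no block could be fitted. The alternatives for the gene lists were not run.

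Depth limits Gad2 in the thalamus most, with 103 counts at the lowest. The interneuron, glial and regional markers were not analysed here, so the cell makeup of each piece was not tested. The flow cell of hippocampal rat 1 is not named.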
